A study of Mus musculus with 6 samples.

Results

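The level of histone H3 acetylated at lysine 27 (H3K27ac) was examined at 9 genes whose products write, erase or read histone acetylation, to ask whether the genes of this machinery lost the mark themselves when OCT4 was depleted. The writers were Ep300, Crebbp, Kat2a and Kat2b, the erasers Hdac1, Hdac2 and Hdac3, and the readers Brd2 and Brd3. Each H3K27ac peak that overlapped a gene body in GENCODE vM21 (GRCm38) or the 5 kb on either side was assigned to that gene, which gave 30 of the 31131 deposited peaks, all 30 of them above the background threshold of 0.5 RPKM, and the 9 genes among 12913 protein-coding genes with a peak. RPKM is the read number of a peak scaled to its length in kilobases and to library size, and the level of a gene is the mean RPKM of its peaks weighted by their length.

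Chromatin immunoprecipitation followed by sequencing (ChIP-seq) had been carried out in ZHBT-O4AID embryonic stem cells (ESCs) of strain 129SV. Every library shared 1 genotype, Oct4-/- with TetOFF Oct4 and with both Oct4AID and Tir1 under CAG. The endogenous Oct4 gene was thus inactive, the wild-type transgene was kept silent by doxycycline (1 μg/ml in all cultures), and the degron-tagged OCT4 and the Tir1 receptor were driven by the ubiquitous CAG promoter. Untreated cells (uninduced, n = 3) were compared with cells given indole-3-acetic acid (IAA), an auxin, at 500 μM for 1.5 h (n = 3), which directs the tagged OCT4 to the proteasome. The libraries of a condition are separate immunoprecipitations, and p-values measure the spread between them, which may be technical. H3K27ac libraries from IAA-treated cells without a degron on OCT4 were not analysed here, so IAA itself and the loss of OCT4 cannot be told apart in these values. All 6 markers of naive ESCs examined (Nanog, Sox2, Klf4, Esrrb, Zfp42 and Tfcp2l1) carried peaks, with uninduced levels of 4.32 to 7.38 RPKM, whereas of 6 lineage genes only Gata6 and Pax6 had one, at 1.48 and 1.74 RPKM, and Gata4, Sox17, Cdx2 and Hand1 had none.

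Acetylation of histone tails is set by acetyltransferases, removed by deacetylases and bound by proteins with a bromodomain. EP300 and its paralog CREBBP are coactivators recruited by transcription factors to enhancers and promoters and are the main enzymes that acetylate H3K27, while KAT2A (GCN5) and KAT2B (PCAF) are the alternative catalytic subunits of the SAGA and ATAC coactivator complexes and act mostly on H3K9. HDAC1 and HDAC2 are the catalytic subunits of the NuRD, SIN3 and CoREST corepressors, HDAC3 that of NCoR/SMRT, and the BET proteins BRD2 and BRD3 bind acetylated histones at active promoters and enhancers.

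The steepest fall among the 30 peaks was at Kat2b, and so was the only member peak near a known OCT4 site. Both are printed with CpG dinucleotides in capitals, as the central 300 bases of each peak on the plus strand of GRCm38. The first, in chr17:53563461-53563760, belongs to the steepest peak, which lies upstream of Kat2b. The second, in chr17:53596059-53596358, belongs to the intronic peak that the authors marked as lying within 1 kb of a published OCT4 binding site. These stretches were chosen after their values were seen.
Kat2b upstream peak: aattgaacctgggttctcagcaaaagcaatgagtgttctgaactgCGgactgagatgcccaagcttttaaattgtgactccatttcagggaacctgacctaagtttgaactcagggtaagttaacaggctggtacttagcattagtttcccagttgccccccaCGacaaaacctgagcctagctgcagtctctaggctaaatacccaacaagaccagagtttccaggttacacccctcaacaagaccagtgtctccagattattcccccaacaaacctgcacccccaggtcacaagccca
Kat2b peak near an OCT4 site: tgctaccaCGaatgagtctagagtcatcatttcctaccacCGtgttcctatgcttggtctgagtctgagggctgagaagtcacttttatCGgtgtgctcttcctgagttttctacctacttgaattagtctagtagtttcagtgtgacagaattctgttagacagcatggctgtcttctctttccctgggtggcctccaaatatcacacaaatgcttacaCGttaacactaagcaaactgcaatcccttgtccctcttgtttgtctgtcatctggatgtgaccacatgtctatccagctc
The first window holds 2 CpG dinucleotides and the second 4. Neither holds the octamer ATGCAAAT bound by OCT4, nor ATGCNAAT, on either strand. Over their whole length, 0 of the 30 member peaks held a match to either form, against 3.01% of all 26457 tested peaks for ATGCAAAT and 6.07% for ATGCNAAT (which includes it), and against 6.44% and 11.7% of the 4662 tested peaks near an OCT4 site. In the central 300 bases, searched on both strands, the SOX core CATTGT was present in 2 of 30 member peaks and in 10.03% of 25652 tested peaks of at least that length. The KLF core CCACCC, present in the second window, was found in 11 of 30 against 29.3%, the ESRRB core AAGGTCA in 1 of 30 against 5.66%, and the STAT core TTCCNGGAA in 0 of 30 against 1.26%. These are matches of letters within the windows and not binding sites. Of the upstream Kat2b peak 59.3% is repeated sequence by soft-masking, where the median tested peak has 9.18%, and the part of repeats in its values was not tested.

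Kat2b also differed from its paralog Kat2a at the start of the gene. No H3K27ac peak covered an annotated start at the 5′ end of Kat2b. The nearest lay in an intron, 658 bp after the closest transcript start (chr17:53566971), whereas a peak covered the start of Kat2a. The RefSeq sequence (GRCm38.p6) before each start is shown for this contrast, again with CpG in capitals. For Kat2b it is the plus strand of chr17:53566721-53566860, the 140 bases that precede the GENCODE gene, and for Kat2a the minus strand of chr11:100712468-100712717, which is 250 bases.
Kat2b before the start: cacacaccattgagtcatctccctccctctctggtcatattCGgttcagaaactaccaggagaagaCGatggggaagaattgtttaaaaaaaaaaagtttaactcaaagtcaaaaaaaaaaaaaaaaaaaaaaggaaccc
Kat2a before the start: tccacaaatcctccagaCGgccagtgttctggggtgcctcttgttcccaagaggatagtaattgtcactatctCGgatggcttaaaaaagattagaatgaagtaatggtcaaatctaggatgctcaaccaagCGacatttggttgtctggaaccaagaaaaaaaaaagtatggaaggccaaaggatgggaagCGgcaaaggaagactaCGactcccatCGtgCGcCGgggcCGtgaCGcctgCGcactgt
The Kat2b stretch contains 2 CpG dinucleotides and the Kat2a stretch 11, but the Kat2b stretch is the shorter, so these counts are not on an equal footing. The whole RefSeq promoter entries around the same starts, which are of equal length, hold 11 CpG for Kat2b and 19 for Kat2a. RefSeq promoters were matched for 7 of the 9 genes (10 entries, since Kat2b and Brd2 have more than 1 start), and 0 of the 10 held ATGCAAAT, which 1.74% of 32851 promoters did.

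H3K27ac was lower after IAA at all 9 genes. By limma across 12294 genes with a Benjamini-Hochberg adjusted p under 0.05, 9 of 9 were called lower, against a background of 84.5% of all genes tested, and at 7 of 9 every IAA library lay below every uninduced library, against 81.3% of all genes. The median change was -0.48 on the log2(RPKM + 0.1) scale over the 9 genes and -0.52 over all genes. The fall was therefore of the size found at most genes with H3K27ac, and with so high a background the count says little about these 9 in particular. The count of 9 dropped to 4 without uninduced replicate 1, where the share of all genes called lower also dropped to 60.9%, and to 4 without IAA replicate 2, where that share was 72.9%. Without uninduced replicate 2 or IAA replicate 3 the count was 6, with 64% and 72.1% of all genes called. Crebbp, Kat2b, Hdac3 and Brd3 were called in all 6 of these leave-one-out fits.

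The libraries held 31634480 to 39547452 reads, and the 30 peaks were covered by 12 to 1454 reads per library. Reads in peaks made up 6.63% to 7.12% of the uninduced libraries and 4.05% to 5.15% of the IAA libraries, so that the whole distribution of peaks moved, by -0.55 (log2) for the median peak and -0.53 for the median gene. No spike-in is named in the sources used here, and the peaks were called by the authors on the pooled uninduced reads alone. Regions that would be called only in IAA reads are therefore absent, which favours falls over rises. The size of this effect was not tested. A loss of the mark shared by all peaks and a lower yield of the IAA immunoprecipitations cannot be told apart from these values. Each gene and peak was therefore also tested relative to the median of its library, where 0 stands for a change equal to that of the median. On that scale 0 of 9 genes were called, against 0.643% of all genes lower and 0.106% higher. At an unadjusted p under 0.05 by limma, 1 of the 9 differed from the median gene, namely Brd2 (adjusted p = 0.432). The share of all tested genes at that unadjusted cutoff was not counted.

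**Figure D1:**
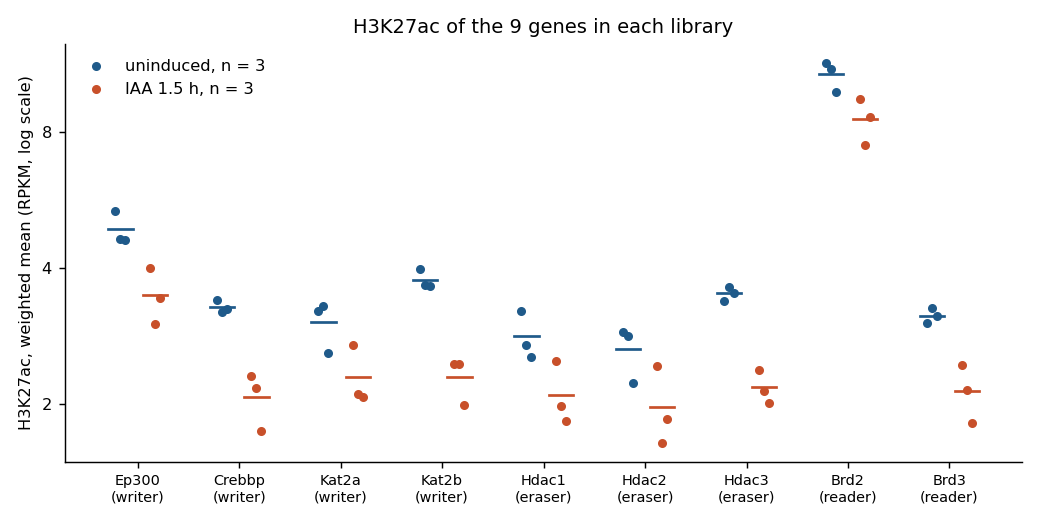
H3K27ac level of each of the 9 genes (length-weighted mean over its peaks, RPKM on a log axis) in 3 uninduced and 3 IAA libraries, with replicates 1 to 3 from left to right and horizontal lines at the means. Kat2a and Hdac2 are the 2 genes whose IAA and uninduced libraries overlap, and Brd2 lies above the other genes in both conditions.

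Among the writers, Ep300 (chr15:81585351-81652077) carried 4 peaks and the highest level of the 4 enzymes. Its level was 5.35, 4.65 and 4.63 RPKM in the uninduced libraries and 4.01, 3.00 and 3.43 RPKM after IAA. The 2 groups did not overlap, and 71.4% of the uninduced mean was left, from 4.88 ± 0.409 to 3.48 ± 0.505 RPKM (SD, n = 3 each), a change of -0.48 ± 0.15 on the log2 scale (SE, limma adjusted p = 0.00558). The call was lost without uninduced replicate 1 or IAA replicate 2. The changes of the 4 Ep300 peaks ranged from -0.72 to -0.23. The peak that ends 228 bp before the start (chr15:81584583-81585123) fell by 0.72 on the log2 scale (SE 0.18, adjusted p = 0.00445), with 4.54, 4.04 and 4.35 RPKM before and 3.42, 1.95 and 2.57 RPKM after IAA. The neighbouring peak over the start (chr15:81585349-81585749), which is partly 5′ UTR, had 8.28, 7.19 and 6.20 RPKM before and 6.82, 4.64 and 7.14 RPKM after, and these overlap (change -0.23, adjusted p = 0.215). The third promoter peak fell by 0.55 (adjusted p = 0.00771), and the peak in exons near the 3′ end, at 1.53 ± 0.136 RPKM in uninduced cells, changed by -0.41 without a call (adjusted p = 0.0979).

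Crebbp (chr16:4081328-4213997, minus strand) had a lower level than Ep300 in all 6 libraries and all 3 of its peaks fell. Its level was 3.40, 3.21 and 3.25 RPKM in the uninduced libraries and 2.32, 2.17 and 1.75 RPKM after IAA. The groups were well apart, with 63.3% left and a change of -0.64 ± 0.15 (SE, limma adjusted p = 0.0011). The steepest of its peaks, chr16:4094352-4095661, covers an exon and the start of a shorter transcript near the 3′ end of the gene, and went from 2.61, 2.37 and 2.90 RPKM to 1.50, 1.25 and 1.32 RPKM, which is 51.7% of the uninduced mean (change -0.90 ± 0.18, adjusted p = 0.00118). Relative to the median peak its change was -0.35 (95% interval -0.69 to -0.01), with a limma adjusted p = 0.338. The peak 188 bp upstream of the main start fell by 0.65 (adjusted p = 0.0155). The remaining peak, chr16:4077066-4078234, lies beyond the 3′ end of Crebbp over the start of Trap1, which encodes a mitochondrial chaperone, and fell by 0.52 (adjusted p = 0.0197), so that part of the Crebbp level is shared with that gene.

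Kat2a (chr11:100704746-100712465, minus strand) had 2 peaks. Its level was 3.22, 3.30 and 2.60 RPKM in the uninduced libraries and 2.71, 2.10 and 2.08 RPKM after IAA. The highest IAA library, replicate 1, exceeded the lowest uninduced library, replicate 3, and a two-sided exact permutation of the 6 libraries gave p = 0.2, where the smallest possible value is 0.1. The limma change was -0.39 ± 0.16 (SE, adjusted p = 0.0231), a call that held in only 2 of 6 leave-one-out fits. The peak over the Kat2a start fell by 0.50 (adjusted p = 0.0212) and also lies in the windows of Hspb9 and Rab5c. The other peak, chr11:100713475-100714669, lies over the neighbouring small heat shock protein gene Hspb9 and changed by -0.35 without a call (adjusted p = 0.0869).

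Kat2b (chr17:53566861-53672720) carried 10 peaks with 8.32 kb of marked sequence, more than any of the other 8 genes. Its level was 3.98, 3.67 and 3.65 RPKM in the uninduced libraries and 2.45, 2.46 and 1.99 RPKM after IAA. Here 61.1% of the uninduced mean was left, from 3.77 ± 0.185 to 2.30 ± 0.269 RPKM (SD, n = 3 each), a change of -0.69 ± 0.15 (SE, limma adjusted p = 0.000541), and 13.2% of all tested genes fell more. Relative to the median gene the change was -0.17 with a 95% interval of -0.34 to 0.01 (adjusted p = 0.493), so that the gene as a whole was not called apart from the rest.

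The 10 peaks of Kat2b ranged in change from -1.60 to -0.39. This was the widest spread within any of the 9 genes, but the others had only 1 to 4 peaks, and a range widens with their number. Of the 10 Kat2b peaks, 8 were called lower, against 68.2% of all tested peaks. The steepest was the upstream peak chr17:53563412-53563808, whose central sequence is printed above and which lies 3053 bp before the gene. It held 65, 56 and 70 reads (4.15, 4.47 and 4.56 RPKM) in the uninduced libraries and 25, 23 and 12 reads (1.85, 1.61 and 0.874 RPKM) after IAA. Only 32.9% of the uninduced mean was left (change -1.60 ± 0.21, limma adjusted p = 4.57e-05), and 0.166% of all tested peaks fell more. The next was the intronic peak chr17:53567629-53568243, which had 5.02, 4.48 and 3.49 RPKM before and 1.96, 1.94 and 1.74 RPKM after IAA, so that 43.4% was left (change -1.15 ± 0.17, adjusted p = 0.000114). Both were also lower relative to the median peak, with changes of -1.05 (95% interval -1.42 to -0.67, limma adjusted p = 0.00872) and -0.60 (interval -0.89 to -0.31, adjusted p = 0.0362). These were the 2 of 30 member peaks called on that scale, against 1.97% of all tested peaks lower and 0.544% higher. Both calls ended under limma without trend and robust (adjusted p = 0.0512 and 0.0961), and the second with the replicate number as a block (adjusted p = 0.0799). The second call was lost in 5 of 6 leave-one-out fits, and both were lost without uninduced replicate 3, where the adjusted p of the upstream peak was 0.0696.

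Further into the gene the changes of the intronic peaks varied. The peak chr17:53573332-53573666 kept 49.2% and chr17:53601287-53602025 kept 49.0% of the uninduced mean (changes -0.96 and -0.97). The strongest and longest peak, chr17:53581774-53583492, went from 6.93, 6.29 and 7.05 RPKM to 4.85, 4.78 and 4.50 RPKM and kept 69.6% (change -0.51, adjusted p = 0.00742). This peak lies 634 bp before the start of a shorter transcript and its change relative to the median peak was 0.04 (interval -0.17 to 0.25). The peak near an OCT4 site, chr17:53595866-53596551, had 2.62, 1.98 and 1.73 RPKM before and 1.63, 1.66 and 1.43 RPKM after IAA. The groups did not overlap (exact permutation p = 0.1, the smallest possible), but the change of -0.39 ± 0.20 was not called by limma (adjusted p = 0.0838) and was the shallowest of the 10. Over all tested peaks, those near an OCT4 site had a median change of -0.71 and the others -0.52.

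**Figure D2:**
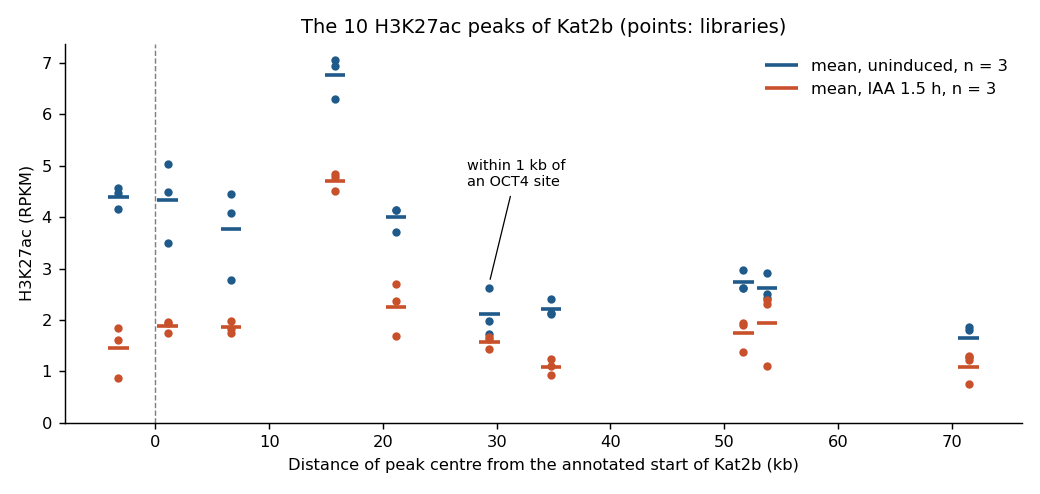
H3K27ac (RPKM) of the 10 Kat2b peaks against the distance of the peak centre from the annotated gene start (kb, dashed line at 0). Points are libraries and bars are means of 3 uninduced and 3 IAA libraries. The IAA points of the upstream peak, at 0.874 to 1.85 RPKM, lie furthest below their uninduced points in proportion, and those of the peak near an OCT4 site lie just below theirs.

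Among the erasers, Hdac1 and Hdac2 both changed by -0.41, and Hdac3 by -0.67, a difference that was not tested. Hdac1 (chr4:129516104-129542713, minus strand) had 3.22, 2.71 and 2.55 RPKM in the uninduced libraries and 2.49, 1.98 and 1.84 RPKM after IAA. The groups were separated by a small gap and 74.4% was left (change -0.41 ± 0.16, limma adjusted p = 0.0184), a call that held in 3 of 6 leave-one-out fits. Its own promoter peak, chr4:129541638-129543132, fell by 0.55 (adjusted p = 0.0179). The other peak assigned to it covers the start of Marcksl1, which encodes an actin-binding protein, and changed by -0.26 without a call (adjusted p = 0.216).

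Hdac2 (chr10:36974544-37001889) had a single peak, chr10:36974022-36975420, over its start. The level was 2.89, 2.83 and 2.24 RPKM in the uninduced libraries and 2.43, 1.65 and 1.86 RPKM after IAA. IAA replicate 1 lay above uninduced replicate 3, so the groups overlapped (exact permutation p = 0.2). As a gene it was called lower (change -0.41 ± 0.17, limma adjusted p = 0.022), and as a peak, with the same values but the error model of all peaks, it was not (adjusted p = 0.0568). The gene call held in 2 of 6 leave-one-out fits.

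Hdac3 (chr18:37935844-37955016, minus strand) had 3.39, 3.64 and 3.53 RPKM in the uninduced libraries and 2.39, 2.14 and 2.01 RPKM after IAA. The groups were wide apart and 61.9% was left (change -0.67 ± 0.15, limma adjusted p = 0.000722). Both of its peaks fell, the one at its own start by 0.63 (adjusted p = 0.0164) and the one over the start of Diaph1, a formin, by 0.69 (adjusted p = 0.00183). The first is also within 1 kb of the start of Rell2, and neither belongs to Hdac3 alone. Relative to the median gene Hdac3 changed by -0.14 (interval -0.32 to 0.04).

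Of the readers, Brd2 stood out by its level. Brd2 (chr17:34112023-34122634, minus strand) had 11.4, 11.0 and 9.80 RPKM in the uninduced libraries and 9.46, 7.50 and 8.66 RPKM after IAA. Its uninduced mean of 10.7 ± 0.833 RPKM was above that of 99.96% of the tested genes, and even the lowest IAA library lay above every library of the other 8 genes. The level fell to 79.5% (change -0.33 ± 0.14, limma adjusted p = 0.0295), the shallowest change of the 9, and the call held in 3 of 6 leave-one-out fits and was lost without limma's trend and robust settings. Relative to the median gene its change was 0.20 (95% interval 0.01 to 0.39), with a limma adjusted p = 0.432. Most of its marked length is the 3.14 kb peak chr17:34119559-34122699 over the promoter, which had 11.7, 11.3 and 10.03 RPKM before and 9.71, 7.78 and 9.12 RPKM after IAA (change -0.31, adjusted p = 0.0545). The smaller downstream peak chr17:34118743-34119107 fell by 0.59 (adjusted p = 0.00759), with 8.54, 9.12 and 7.73 RPKM before and 7.33, 5.10 and 4.68 RPKM after. Both peaks lie within 1 kb of a start of H2-DMa, which encodes a chain of an MHC class II peptide loader, and the larger overlaps an antisense transcript.

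Brd3 (chr2:27445579-27507662, minus strand) carried 4 peaks. Its level was 3.03, 3.27 and 3.14 RPKM in the uninduced libraries and 2.45, 2.15 and 1.82 RPKM after IAA. The groups did not overlap and 68.0% was left (change -0.55 ± 0.15, limma adjusted p = 0.00314). Of its peaks, 3 were called lower with changes of -0.61 to -0.52, the longest of them the intronic peak chr2:27504029-27506457 (2.67, 3.03 and 3.13 RPKM before and 2.05, 1.86 and 1.76 RPKM after). The peak over the start of the downstream gene Brd3os changed by -0.31 without a call (adjusted p = 0.165).

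**Figure D3:**
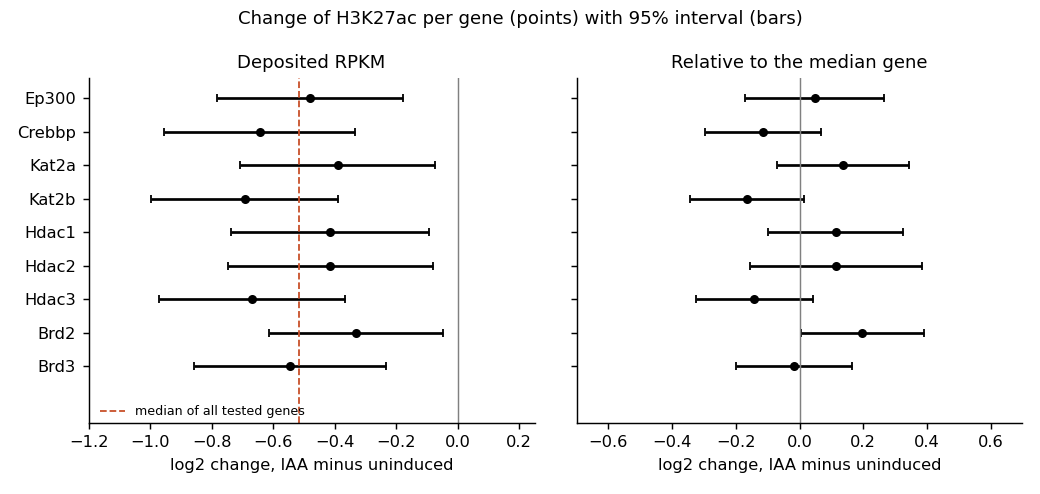
Change of H3K27ac per gene on the log2(RPKM + 0.1) scale (points, with 95% intervals) from limma, on the deposited RPKM (left, with the median of all tested genes at -0.52 as a dashed line) and relative to the median gene of each library (right). On the left every interval lies below 0, and on the right only that of Brd2 leaves out 0.

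In uninduced cells the order of the levels ran Brd2, Ep300, Kat2b, Hdac3, Crebbp, Brd3, Kat2a, Hdac1 and Hdac2, from 10.7 to 2.65 RPKM. Part of this order rests on peaks over neighbouring genes. The Diaph1 peak counted to Hdac3 had 4.70 RPKM and the Trap1 peak counted to Crebbp 4.91 RPKM. The remaining peak of Hdac3 had 2.03 RPKM, and those of Crebbp 2.62 and 1.98 RPKM. The Hspb9, Marcksl1 and Brd3os peaks, at 2.81, 2.50 and 2.43 RPKM, lay below the levels of Kat2a, Hdac1 and Brd3. The libraries of Brd2, Ep300 and Kat2b did not overlap those of the next gene in this order, and from Hdac3 on each gene overlapped the next. After IAA, Brd2 and Ep300 were still above the other genes with no overlap, whereas Kat2b and Kat2a, both at 2.30 RPKM, overlapped, and the lowest mean was again that of Hdac2 at 1.98 ± 0.407 RPKM. The paralogs of each pair were also compared within each library, as a description, and the differences before and after IAA overlapped for every pair. The log2 level of Kat2b minus Kat2a was 0.31 ± 0.16 in uninduced and 0.01 ± 0.18 in IAA libraries (SD, n = 3 each), and that of Hdac1 minus Hdac2 was 0.09 in both conditions. Peaks over neighbouring genes enter these differences too. The peak over the Kat2a start had a mean of 3.75 RPKM in uninduced and 2.63 RPKM in IAA libraries, beside Kat2b levels of 3.77 and 2.30 RPKM.

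Over the 30 peaks, 21 were called lower and 0 higher by limma, against 68.2% of all 26457 tested peaks called lower, and 22 had no overlap between the conditions, against 71.2%. The median change was -0.55 for the member peaks and -0.55 for all peaks. All member changes were negative on this scale (-1.60 to -0.23), so none could be called higher. Relative to the median peak, 5 member peaks were lower and 1 higher at an unadjusted limma p under 0.05. The higher one was the larger Brd2 peak (relative change 0.24, limma adjusted p = 0.281). The share of all tested peaks at that unadjusted cutoff was not counted. Without uninduced replicate 1 the count of 21 dropped to 13, and the share of all tested peaks called lower dropped to 39.2%. Peaks within 1 kb of the start of a coding gene made up 20 of the 30 (66.7%, against 44.7% of all tested peaks). Of these 20, 14 were called lower, against 71.2% of all tested peaks of that class. Of the other 10, 7 were called lower, against 65.8%. A single member peak (3.33%) was near an OCT4 site, against 17.6% of all tested peaks. The member peaks had a median GC content of 57.4%, against 52.9%.

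**Figure D4:**
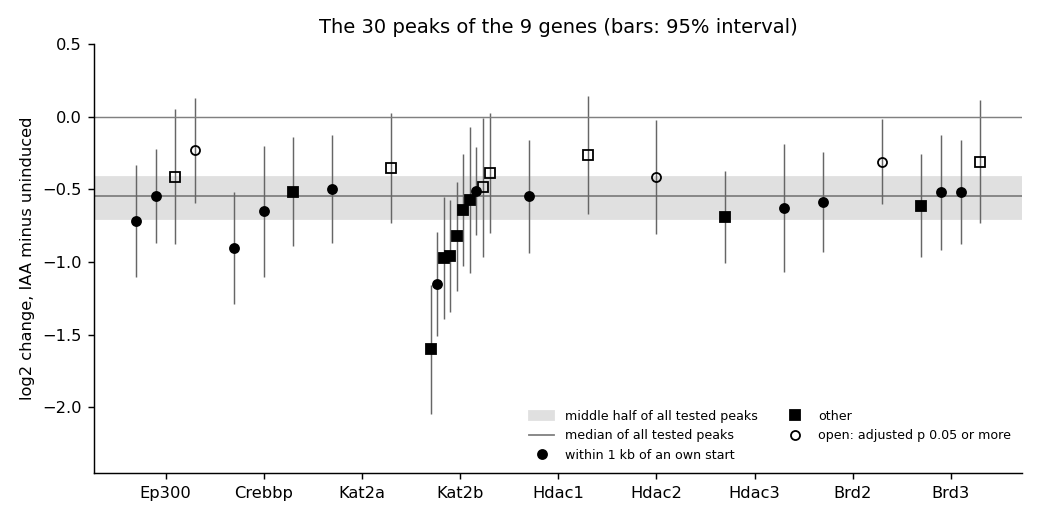
Change of H3K27ac at each of the 30 peaks on the log2(RPKM + 0.1) scale (bars, 95% intervals), ordered within each gene from the steepest fall. Circles lie within 1 kb of a start of the gene, squares elsewhere, and open symbols were not called. Most points lie in the grey band of the middle 50% of all tested peaks, and others lie above or below it. The 2 steepest Kat2b peaks lie furthest below it, at -1.60 and -1.15.

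Promoter peaks were set against the other peaks of the same gene within each library, a difference that a factor common to a library does not move. For the 7 genes with both kinds, the difference changed by -0.29 to 0.07 on the log2 scale between conditions, the conditions overlapped for all 7, and the exact permutation p was 0.4 to 1 (7 comparisons, smallest possible p 0.1). In Crebbp, Kat2a, Hdac1 and Hdac3 the only other peak lies within 1 kb of the start of a neighbour (Trap1, Hspb9, Marcksl1 and Diaph1). The same holds, with Brd3os, for 1 of the 2 other peaks of Brd3. For Crebbp, Kat2a, Hdac1 and Hdac3 the contrast thus sets a gene's promoter against that of a neighbour, and not against peaks away from promoters. In Crebbp the promoter peaks minus the Trap1 peak gave -1.03 ± 0.165 in uninduced and -1.33 ± 0.431 in IAA libraries (SD, n = 3 each).

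Other genes of the pathway were counted in 6 lists. Of 100 such genes 96 had a peak, 95 were tested, 86 (90.5%) were called lower and 0 higher, against 84.5% of all 12294 tested genes called lower, and the median change was -0.54 against -0.52 for all genes. Relative to the median gene, 0 of the 95 were called by limma, and at an unadjusted p under 0.05 there were 8 lower and 5 higher. No share of all tested genes was counted at that unadjusted cutoff, so whether these counts exceed the background was not tested. Mllt3, Hdac5, Hdac8 and Hdac11 had no peak in their window, and Hdac9 was below the threshold.

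All 11 other acetyltransferases were called lower, against 84.5% of all tested genes, and 0 of the 11 relative to the median gene. Kat6b, catalytic subunit of a MOZ/MORF complex, had 4.42, 4.37 and 4.10 RPKM before and 2.53, 2.34 and 2.10 RPKM after IAA, the steepest change of the list (-0.86, adjusted p = 4.62e-05), and Naa40, which acetylates the amino terminus of histones H4 and H2A, the shallowest (-0.35, adjusted p = 0.0364). Of the SAGA and ATAC subunits that work with KAT2A and KAT2B, 15 of 17 were called lower, from the adaptor Tada2a at -0.84 to the deubiquitinase Usp22, whose libraries overlapped (-0.23, adjusted p = 0.159). All 24 corepressor partners of HDAC1, HDAC2 and HDAC3 were called lower on the deposited scale, and 0 of the 24 relative to the median gene. Among them Sap30, a SIN3 subunit, had 3.88, 3.46 and 3.41 RPKM before and 1.74, 1.64 and 1.76 RPKM after IAA, the steepest change of the 95 genes (-1.02, adjusted p = 6.53e-06), although relative to the median gene its adjusted p was 0.0778. The CoREST scaffold Rcor1 changed least in that list (-0.39, adjusted p = 0.0238).

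Of the other deacetylases 7 of 9 tested (77.8%, against 84.5% of all genes) were called lower, between Hdac10 at -0.67 and the mainly cytoplasmic Sirt2, which had 2.18, 2.12 and 2.55 RPKM before and 2.37, 2.12 and 1.90 RPKM after IAA (-0.10, adjusted p = 0.559). Of the other acetyl-lysine readers 22 of 26 (84.6%) were called lower, between Zmynd8 at -0.79 (adjusted p = 0.000139) and the bromodomain protein gene Brwd3 at -0.11 (adjusted p = 0.575). Of 8 genes that supply acetyl-CoA, 7 (87.5%) were called lower, between the dihydrolipoamide dehydrogenase gene Dld at -0.68 and the acetyl-CoA synthetase gene Acss2 at -0.27 (adjusted p = 0.0876). Each list is small, and the medians of the 6 lists, from -0.59 to -0.49, lay within the middle 50% of all tested genes (-0.62 to -0.42).

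**Figure D5:**
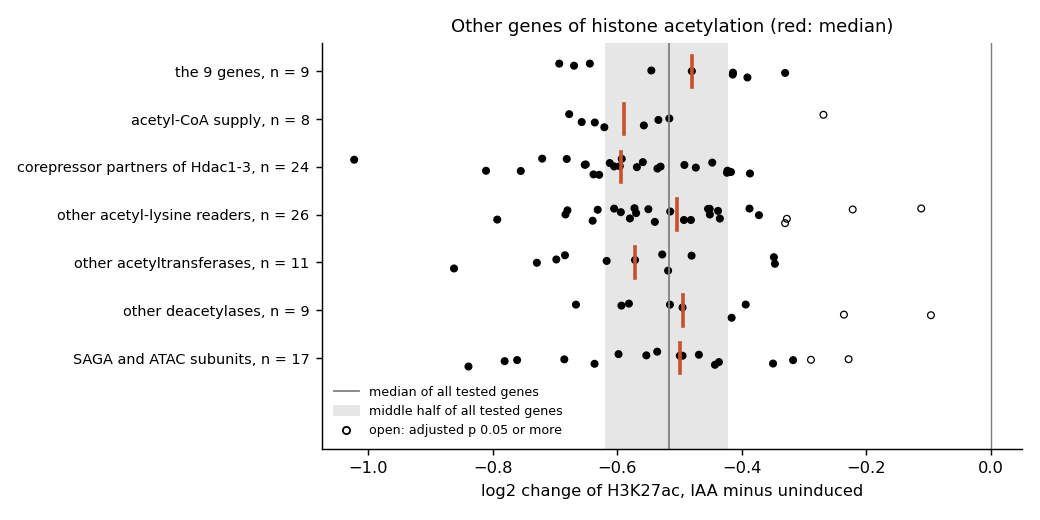
Change of H3K27ac per gene (log2, IAA minus uninduced) for the 9 genes and 6 lists of other genes of histone acetylation, each point a gene, open where the adjusted p was 0.05 or more, red bars at list medians. The grey line and band are the median and middle 50% of all tested genes, and the list medians all fall in the band, with Sap30 furthest to the left at -1.02.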

How the data were processed

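H3K27ac ChIP-seq was performed in O4AID ESCs with 3 immunoprecipitations per condition. The authors aligned reads to GRCm38 (mm10) with Bowtie 2 (2.3.4.3, in the submitters' processing notes), removed duplicates, called peaks with MACS2 on pooled uninduced reads and deposited RPKM values from DiffBind, whose version, like that of MACS2, is not given in the sources used here. The deposited pooled columns equal the mean RPKM of the 3 libraries. RPKM values were whole multiples of 1 read in 100% of cases (tolerance 0.01 reads), from which library sizes were recovered.

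Peaks and genes of at least 0.5 RPKM in either condition were tested on log2(RPKM + 0.1), a scale that understates changes of low peaks, with limma 3.58.1 in R 4.3.3 (lmFit, eBayes with trend and robust) over all peaks or genes, adjusted by Benjamini-Hochberg at 0.05. The scripts were tested on simulated data. Single values were compared by exact two-sided permutation (20 labellings). Genes came from GENCODE vM21, promoters from RefSeq (GRCm38.p6). Peak coordinates are those of the deposited files. Named were the 9 genes with their peaks, from each list the genes with the lowest and highest change, and member peaks near OCT4 sites. Members and lists were chosen with earlier results of these data known.

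Alternatives covered the pseudocount, threshold, scaling, window, peaks shared with neighbouring genes, limma settings, replicate number as a block and each library left out.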

Additional observations from a re-analysis of the deposited data

How the results depend on the processing

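The 9 genes and the 21 lower peaks kept their direction and call under both other pseudocounts and with a background threshold of 1 RPKM, and the 9 genes also with no flank, a 10 kb flank, a plain mean over peaks, and only peaks above the threshold. Quantile normalization, which by construction removes a shift common to all peaks, left 2 of 30 peaks lower and 0 higher (447 and 119 of all peaks) and 0 of 9 genes (84 lower and 11 higher of all genes), with a median over the 9 genes of -0.016. Under it the change became positive for Ep300 (0.041), Kat2a (0.14), Hdac1 (0.12) and Hdac2 (0.11) as genes. It also became positive for 16 peaks, with values of 0.25 and 0.19 in Ep300, 0.064 in Crebbp, 0.084 and 0.22 in Kat2a, 0.024, 0.18, 0.083 and 0.023 in Kat2b, 0.30 and 0.032 in Hdac1, 0.15 in Hdac2, 0.052 in Brd2, and 0.25, 0.061 and 0.060 in Brd3. At an adjusted p under 0.01, 13 peaks and 5 genes were lower (33.3% of all peaks and 59.7% of all genes), and 1 peak relative to the median peak (0.571%).

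Leaving out each library in turn gave 13 to 25 lower peaks (13 without uninduced replicate 1), beside 39.2% to 74.1% of all peaks. It gave 4 to 9 lower genes (4 without uninduced replicate 1 or IAA replicate 2), beside 60.9% to 90.5% of all genes, and 0 to 2 peaks lower relative to the median peak (0 without uninduced replicate 3), beside 0.374% to 2.62%. Limma without trend and robust gave 0 of these, where the adjusted p of the 2 Kat2b peaks was 0.0512 and 0.0961, and the cause was not tested. Relative to the median gene, values near 0 changed sign. Ep300 ranged from -0.036 to 0.15 and Brd3 from -0.063 to 0.019 when a library was left out, Hdac1 was -0.020 with no flank and -0.021 without shared peaks, and Brd3 was 0.027 as a plain mean. Without peaks shared with another coding gene, 6 genes could be tested and 6 were lower, beside 78.2% of all genes.

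Same-numbered libraries did not deviate together (r = -0.014, -0.091 and -0.061 over peaks), so no pairing by number was seen in the values. With so few libraries this cannot show whether they were prepared in pairs. With the replicate block, 24 peaks and 9 genes were lower (71.4% and 88.8% of all), and 1 peak relative to the median peak (1.18%). Depth limits single peaks, since the member peak with the fewest reads had 12 in a library. The values cover counting and immunoprecipitation error in a single cell line.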
